A study of Homo sapiens with 24 samples.

Results

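Dox500 is a doxorubicin-resistant line raised from Ramos, an established human Burkitt's lymphoma B cell line, and its RNA was compared with that of the parental line on Illumina bead arrays, 4 arrays for each line. A probe entered the comparison when its detection p-value, deposited beside each signal, was under 0.01 on 3 or more of the 4 arrays of either line. This held for 14976 of 47323 probes, or 31.6%, and these probes named 9151 genes, against 9533 genes when all 6 lines of the study were used. Ramos was grown in RPMI medium with fetal bovine serum and no doxorubicin. Dox500 was grown in the same medium with 500 nM doxorubicin, the level it was raised to withstand, and was derived from Dox250, which came from Dox100 and, before that, from Ramos. Dox750 and Dox1000 were raised from Dox500 in turn, and each of these lines grew in the concentration its name gives. The submitters describe the 4 arrays of a line as technical replicates, grown as 4 cultures taken from 1 parent culture, so the p-values below measure only the spread between split cultures of 1 population per line. Drug was present only in the cultures of the resistant lines, so a lasting difference of the line and the response to the drug in the medium cannot be told apart.

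Doxorubicin is an anthracycline that slides between the bases of DNA and traps type II topoisomerases on it, which leaves double-strand breaks. The best known route to resistance in cultured cells is the ATP-driven efflux pump P-glycoprotein, encoded by ABCB1, which also exports many other drugs. DNA damage is known to reach innate immune signalling too, through interferon and NF-kB pathways, and Burkitt's lymphoma cells carry a translocated MYC gene and a germinal centre B cell programme.

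The unnormalized signal had a median of 121.1 to 161.2 per array, with Dox500 replicate 2 the dimmest, and 14588 to 15181 probes were detected per array. After normalization the arrays correlated at r = 0.991 to 0.994 within a line and at 0.956 to 0.963 between Ramos and Dox500. No 2 arrays held identical values, and the number of arrays limits the precision. Both lines carried B cell RNA: CD79A and CD79B, the signalling chains of the B cell receptor, read 12.80 to 13.07 and 13.37 to 13.55 in Ramos on the log2 scale of normalized intensity, and 13.27 to 13.42 and 13.90 to 14.02 in Dox500. MS4A1, which encodes CD20, was detected on all 8 arrays. The single probe of PAX5, a B lineage transcription factor, was detected on none of the 8 arrays. Just inside the detection threshold, 779 probes detected on exactly 3 arrays of the better line had a median log2 signal of 5.60, and just outside it 948 probes detected on 2 arrays had 5.39, against 8.21 over all probes that entered.

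Of the 9151 genes, 2338 (25.5%) were higher and 2203 (24.1%) lower in Dox500 than in Ramos at an adjusted p under 0.05, and 370 (4.04%) were at least 2-fold higher and 310 (3.39%) at least 2-fold lower. Differences of at least 4-fold were found for 96 genes upward and 49 downward, and differences of at least 16-fold for 17 and 7. The median log2 difference over all genes was 0.00, and the middle 50% of genes lay between -0.27 and 0.28. Many of the large differences lay between a detected and an undetected level: 138 of the 370 and 92 of the 310 genes had a probe that no array of one line detected. For such genes the text gives a lower bound of the fold, set against the dimmest signal still detected, and 64 of the higher and 51 of the lower genes had a bound under 2 or none. Among genes detected on 3 or more of the 4 arrays of each line, 201 were at least 2-fold higher and 184 at least 2-fold lower. The split between higher and lower genes moved with the scaling. Median scaling in place of quantile normalization shifted the median over all genes to -0.15 and gave 284 genes at least 2-fold higher and 451 at least 2-fold lower, so the higher share of these genes went from 54.4% to 38.6%, and that of all passing genes from 51.5% to 29.6%. Small differences are therefore read relative to the median of all genes, and for lists whose median had the other sign under median scaling that value is given, with the value relative to all genes. Higher and lower counts of the lists below are to be read beside the 25.5% and 24.1% of all genes. A count near these shares sets no list apart. Where only some arrays of a line detected a gene, their number is given, and the fitted difference is then set in part against values below detection and measures no exact fold. The size of the folds moved with the background correction: on the authors' deposited log2 values, which carry none, 118 genes were at least 2-fold higher and 79 at least 2-fold lower.

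**Figure D1:**
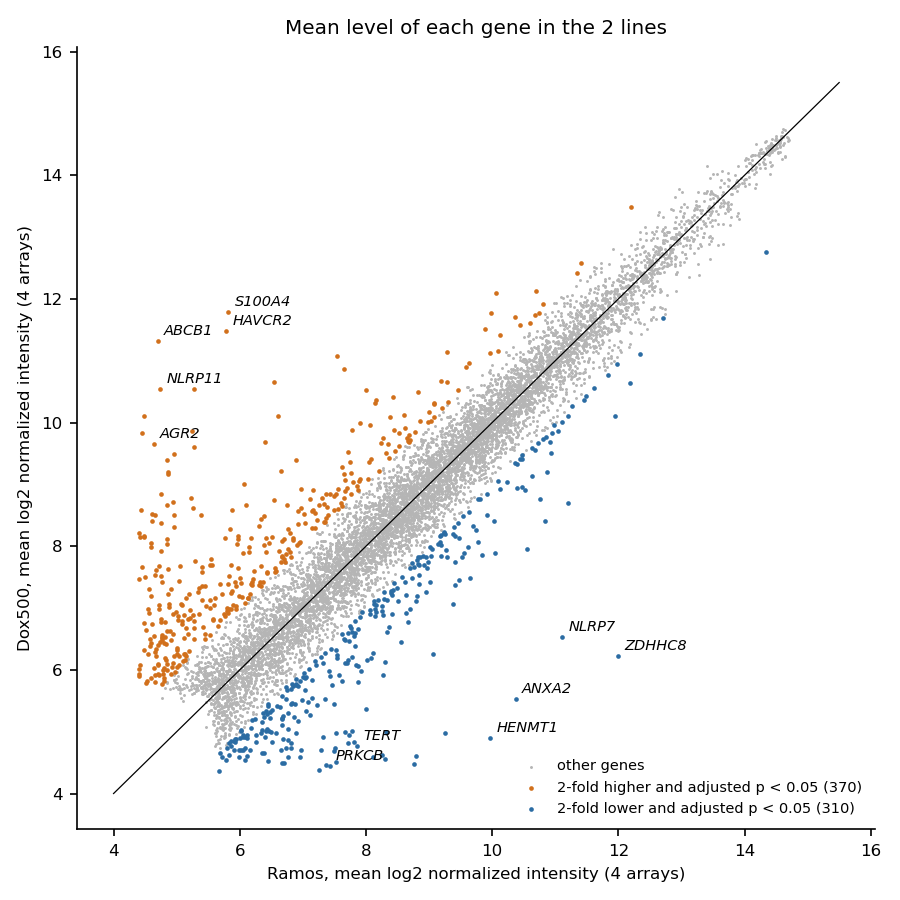
Mean log2 normalized intensity of each of 9151 genes over 4 Ramos arrays (x axis) and 4 Dox500 arrays (y axis); coloured points are the 370 genes at least 2-fold higher and the 310 at least 2-fold lower with an adjusted p under 0.05, and the line marks equal levels. ABCB1 and S100A4 stand among the points farthest above the line and ZDHHC8 and HENMT1 among those farthest below it.

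The other resistant lines give the setting for these differences. Against the mean of Dox100, Dox250, Dox750 and Dox1000, 1069 genes (11.7%) were higher and 894 (9.77%) lower in Dox500, with 12 (0.131%) and 25 (0.273%) past 2-fold. Against Dox250, the line it came from, 743 genes (8.12%) were higher and 593 (6.48%) lower, with 40 (0.437%) and 16 (0.175%) past 2-fold. In Dox750, the line raised from it, 341 genes (3.73%) were higher and 381 (4.16%) lower than in Dox500, with 20 (0.219%) and 4 (0.0437%) past 2-fold. These comparisons share the 4 Dox500 arrays with each other and with the comparison with Ramos, so their values are set side by side below and not counted as separate evidence.

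ABCB1, the gene of the efflux pump P-glycoprotein, had the largest fitted difference of the 9151 genes. Its log2 level was 5.05, 4.49, 4.73 and 4.54 on the Ramos arrays, none of which detected it, and 11.28, 11.35, 11.31 and 11.34 on the Dox500 arrays. The groups lay far apart, with means of 4.70 and 11.32, and the level was at least 54.0-fold higher in Dox500 (adjusted p = 1.70e-19). A second, dimmer probe of the gene differed by 5.09 on the log2 scale in the same direction. ABCB1 was still below detection on 3 of 4 arrays of Dox100, with a mean of 5.01, and reached 9.59 in Dox250. From Dox250 to Dox500 it rose by a further 1.72 ± 0.16 (SE) on the log2 scale (adjusted p = 1.07e-07), and the means of 11.22 in Dox750 and 11.36 in Dox1000 lay within 0.10 of Dox500.

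ABCB4, the neighbouring gene that encodes the phosphatidylcholine transporter of liver cells, rose less. Its level was 5.32, 5.77, 5.65 and 5.38 in Ramos, where 2 arrays detected it, and 6.77, 7.12, 7.11 and 6.97 in Dox500, with no overlap, a log2 difference of 1.46 ± 0.13 (SE; adjusted p = 2.44e-09). The 2 genes did not keep the same order across lines. ABCB4 was 2.41 above Ramos on the log2 scale in Dox100, where 1 of 4 arrays detected ABCB1 (adjusted p = 0.121 against Ramos), and it fell by 0.43 from Dox250 to Dox500 (adjusted p = 0.0262) while ABCB1 rose. Its level in Dox500 was below all 16 arrays of the other resistant lines. Next to ABCB1 on the other side, SLC25A40, a mitochondrial carrier, fell by 1.16 ± 0.13 on the log2 scale. SRI, which encodes the calcium-binding protein sorcin, fell by 0.66, SEMA3E, a secreted guidance factor, fell by 0.94, and the kinase gene CDK14 fell by 0.76, while ELAPOR2 rose by 0.99 and STEAP1, a metalloreductase gene detected on 3 of 4 Ramos arrays, by 0.61. CROT, the peroxisomal carnitine acyltransferase gene, differed by 0.08 (adjusted p = 0.593) and TMEM243 by 0.24 (adjusted p = 0.0889). These neighbours were picked from the genes around ABCB1 after their values had been seen, and not by distance alone. Genes left out include DBF4 (-0.32, adjusted p = 0.167), TP53TG1 (0.37, adjusted p = 0.305) and DMTF1 (0.08, adjusted p = 0.579). All of these lie nearer to ABCB1 than SEMA3E and CDK14. ANKIB1, which fell by 0.64, was left out too. Against Dox250, ELAPOR2, TMEM243 and CROT were higher in Dox500 by 0.83, 0.86 and 0.75 on the log2 scale. These 3 lie within 6 measured genes of ABCB1, all on the side of ABCB4. Of the other genes that near, ABCB4 fell and the rest did not pass. Among the rest were SLC25A40 (-0.33, adjusted p = 0.0987), SRI (-0.41, adjusted p = 0.0630) and TP53TG1 (0.61, adjusted p = 0.164).

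Of 8 measured genes among 15 listed drug efflux and vault genes, 3 were higher, 1 was lower and 4 did not pass. ABCC4, a pump for organic anions and nucleotide analogues, rose by 0.65 ± 0.10 on the log2 scale, and ABCB8, a mitochondrial transporter detected on 3 of 4 Dox500 arrays, fell by 0.73 ± 0.15. The list median was 0.19, beside 0.00 over all genes, and 1 of 3 higher genes and no lower one lay off chromosomes 7, 12 and 20, the chromosomes whose medians stood apart from the rest (below).

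After ABCB1, the largest rises were of genes with little or no signal in Ramos. S100A4, a calcium-binding protein that acts on the cytoskeleton and cell motility, read 5.95, 5.91, 5.62 and 5.80 in Ramos and 11.95, 11.79, 11.65 and 11.75 in Dox500. The groups did not overlap, and the level was 62.5-fold higher (log2 difference 5.96 ± 0.08, SE; adjusted p = 6.66e-24). HAVCR2, the inhibitory immune receptor TIM-3, read 5.75, 5.63, 5.65 and 6.12 in Ramos and 11.39, 11.42, 11.57 and 11.52 in Dox500. Again no array of one line reached the other line's range, and the level was 51.5-fold higher (adjusted p = 4.11e-22). NLRP11, of the NLR family of innate sensors, was undetected in Ramos (mean 4.74) and read 10.54 in Dox500, at least 31.4-fold higher (adjusted p = 7.65e-22). The other genes of this group that no Ramos array detected covered a wide range of roles. FABP6, the bile acid-binding protein of the ileum, had means of 4.48 and 10.10 and was at least 23.2-fold higher (adjusted p = 6.78e-23). SMCO4, a small membrane protein gene, had means of 5.25 and 9.87 (at least 19.8-fold, adjusted p = 4.11e-22), and CCDC85A 4.45 and 9.83 (at least 19.3-fold, adjusted p = 9.71e-23). AGR2, a disulfide isomerase of secretory epithelium, had means of 4.64 and 9.66 (at least 17.1-fold, adjusted p = 2.25e-20). These 4 genes therefore passed from below detection to levels above the median probe of the comparison. IFI44, an interferon-induced gene described further below, had means of 5.28 and 9.61 (at least 16.5-fold, adjusted p = 3.88e-15). NAV2, a neuronal migration gene, had means of 4.96 and 9.48 (at least 15.1-fold, adjusted p = 1.10e-18), and SULF2, an extracellular heparan sulfatase, 4.84 and 9.39 (at least 14.2-fold, adjusted p = 2.63e-19). The sialyltransferase gene ST3GAL6 was at least 12.4-fold higher, from a mean of 4.86 to 9.20 (adjusted p = 1.13e-21). The cholinesterase gene BCHE was at least 12.2-fold higher, from 4.87 to 9.17 (adjusted p = 1.81e-17), and the phosphodiesterase gene GDPD5 at least 8.11-fold, from 4.44 to 8.58 (adjusted p = 4.84e-19). SNCAIP, which encodes the synuclein-binding protein synphilin, was detected on 1 of 4 Ramos arrays and differed by 5.27 ± 0.12 on the log2 scale (adjusted p = 4.14e-20).

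Of these 15 genes all but ABCB1 were detected on every array of Dox100 and Dox250 too. HAVCR2 stood 5.63 and 5.88 above Ramos on the log2 scale in Dox100 and Dox250, beside 5.69 in Dox500, and S100A4 5.26 and 5.20, beside 5.96. NLRP11 was among those that rose further at this step, by 2.16 on the log2 scale over Dox250 (adjusted p = 5.61e-12). AGR2 rose by 0.68 over Dox250 and GDPD5 by 0.52.

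The genes that fell furthest were detected on all 4 Ramos arrays, and 12 of the 15 were detected on no Dox500 array. ZDHHC8, a protein palmitoyltransferase gene, read 12.29, 11.99, 11.73 and 11.99 in Ramos and 6.38, 6.12, 6.13 and 6.28 in Dox500, where it was still detected. It was 54.5-fold lower (log2 difference -5.77 ± 0.17, SE; adjusted p = 3.96e-18), with no overlap between the groups. HENMT1, the methyltransferase that protects the ends of piwi-interacting RNAs, had means of 9.97 and 4.90 and was at least 20.6-fold lower (adjusted p = 2.56e-15). ANXA2, a calcium-dependent membrane-binding annexin, read 10.46, 10.37, 10.31 and 10.37 in Ramos and 5.03, 6.31, 5.41 and 5.33 in Dox500. Only the Dox500 array at 6.31 detected it, and the fitted log2 difference, with the other 3 values below detection, was -4.85 ± 0.21 (adjusted p = 6.80e-15). NLRP7, of the same family as NLRP11, fell by 4.59 ± 0.13 on the log2 scale (adjusted p = 2.83e-18), from a mean of 11.11 to 6.52.

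Among the others, STOX2 was at least 12.5-fold lower (means 9.25 and 4.98, adjusted p = 5.96e-18). TEX30 was at least 9.14-fold lower (8.80 and 4.61, adjusted p = 2.67e-16), and PIGY, a subunit of the enzyme that starts glycosylphosphatidylinositol anchors, at least 8.90-fold lower (8.76 and 4.47, adjusted p = 6.78e-23). ADAM23, a catalytically inactive surface protein of the ADAM family, was at least 6.53-fold lower (mean of 8.32 in Ramos, 4.83 to 5.24 on the Dox500 arrays, adjusted p = 1.16e-13). This group held several regulators. ZNF275, a zinc finger gene, was at least 6.45-fold lower (8.30 and 4.55, adjusted p = 8.81e-19), and TESC, a calcium-binding regulator of ion exchange, at least 6.24-fold lower (8.25 and 4.63, adjusted p = 8.90e-16). CMTM8 was at least 5.69-fold lower (8.12 and 4.58, adjusted p = 3.36e-19). TERT, the catalytic subunit of telomerase, read 7.94, 7.75, 7.76 and 8.01 in Ramos and 4.96, 4.71, 4.72 and 4.67 in Dox500, with no array detecting it there. Its level was at least 4.78-fold lower (adjusted p = 5.83e-16). TBXT, the mesoderm factor brachyury, was at least 4.59-fold lower (7.81 and 4.83, adjusted p = 9.11e-15). PDIA5, a disulfide isomerase gene, was at least 3.78-fold lower (7.53 and 4.50, adjusted p = 1.11e-17), and PRKCB, the protein kinase C isoform that carries B cell receptor signals to NF-kB, at least 3.52-fold lower (7.42 and 4.44, adjusted p = 1.38e-16). TEX30 stood 0.08 below Ramos in Dox100 (adjusted p = 0.720) and 3.53 below it in Dox250, whereas TERT, PRKCB and HENMT1 were already detected on none of the Dox100 arrays.

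**Figure D2:**
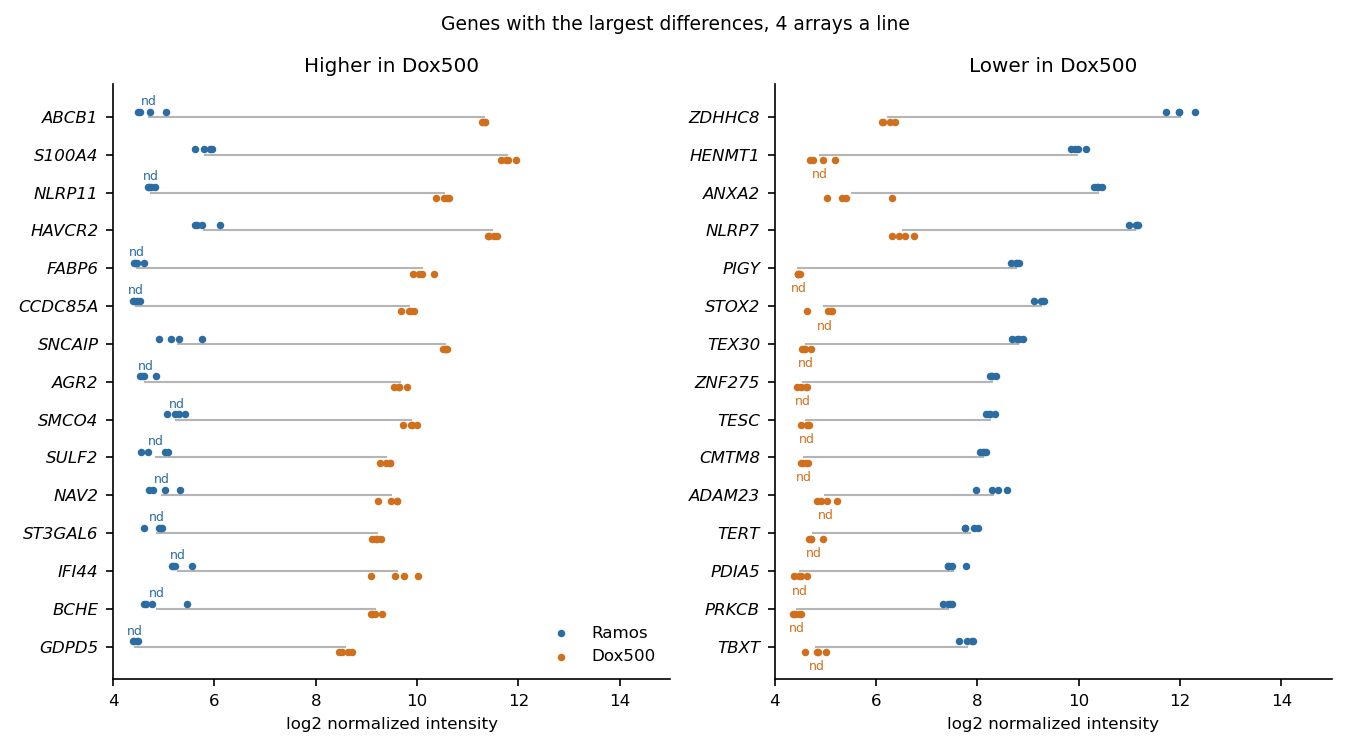
Log2 normalized intensity (x axis) on each of the 4 Ramos and 4 Dox500 arrays, 1 point an array, for the 15 genes with the largest rise and the 15 with the largest fall; nd marks a line in which no array detected the probe. For each gene drawn the 4 arrays of one line lie apart from the 4 of the other.

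Interferon-stimulated effectors, the antiviral proteins that cells make in answer to interferon, were higher in Dox500 than in Ramos. Of 39 listed genes 24 were measured, 16 of them rose, 2 fell and 6 did not pass, with a median log2 difference of 0.87 (0.78 with genes undetected in Ramos set at their bound) beside 0.00 over all genes. The other 15 fell below the detection rule, and 11 of these were detected on none of the 8 arrays. IFI44 read 5.18, 5.16, 5.56 and 5.22 in Ramos and 9.75, 10.03, 9.09 and 9.57 in Dox500. IFI27, a mitochondrial and nuclear membrane protein gene, was undetected in Ramos (mean 4.47) and read 7.90, 8.51, 7.68 and 8.56 in Dox500, at least 6.04-fold higher (adjusted p = 5.44e-13). EPSTI1 was undetected in Ramos (mean 4.77) and read 7.52, 7.55, 6.96 and 7.63, at least 3.60-fold higher (adjusted p = 5.74e-13). In each of these 3 genes replicate 3 was the lowest Dox500 array, still above all Ramos arrays. IFI44L, a paralogue of IFI44, read 4.33 to 4.48 in Ramos with the probe used, which no Ramos array detected, and 7.46 to 8.91 in Dox500; its other probe was detected in Ramos and differed by 0.62 on the log2 scale, so no fold is given. The 2 that fell were IFITM2, a restriction factor of virus entry, at -1.72, and SAMD9, an antiviral factor, at -0.33; they were named after their values had been seen, and members of the IFITM family are near-identical in sequence.

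Promoters of 4 of these genes are printed because most windows of the list hold one motif. The interferon-stimulated response element, bound by a complex that contains IRF9, was searched as its core GAAANNGAA on both strands in RefSeq windows (GRCh38.p14) of 250 bases before to 50 after each start site. Of the 24 genes 19 matched the table, and 18 of their 25 windows (72.0%) held the core, against 2847 of 35116 windows of all genes (8.11%). A gene with several start sites has several windows, which can share bases, and the 18 windows belonged to 15 genes. The gamma-activated site TTCNNNGAA stood in 28.0% of the 25 windows and 7.66% of all, and the unrelated CCAAT box, CCAAT, in 40% and 34.6%. The 4 promoters below are those of the members with the largest rise, each given as the 250 bases before the start site from 5′ to 3′ on the strand of the gene, with matches of the core in capitals. Their positions are chr1:78649539-78649788 on the plus strand for IFI44, chr1:78620198-78620447 on the plus strand for IFI44L, chr14:94110486-94110735 on the plus strand for IFI27 and chr13:42992242-42992491 on the minus strand for EPSTI1. The match of IFI44 begins 17 bases before the start and runs on the opposite strand, those of IFI44L begin 164 and 73 bases before it, those of IFI27 107 and 95, and that of EPSTI1 50. In IFI27 and EPSTI1 a match overlaps a gamma-activated site. A match describes these letters and is no measurement of binding.
IFI44: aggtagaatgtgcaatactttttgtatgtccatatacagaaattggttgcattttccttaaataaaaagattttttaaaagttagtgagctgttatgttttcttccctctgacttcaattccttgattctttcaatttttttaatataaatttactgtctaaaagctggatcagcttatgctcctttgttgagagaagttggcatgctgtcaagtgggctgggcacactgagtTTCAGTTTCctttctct
IFI44L: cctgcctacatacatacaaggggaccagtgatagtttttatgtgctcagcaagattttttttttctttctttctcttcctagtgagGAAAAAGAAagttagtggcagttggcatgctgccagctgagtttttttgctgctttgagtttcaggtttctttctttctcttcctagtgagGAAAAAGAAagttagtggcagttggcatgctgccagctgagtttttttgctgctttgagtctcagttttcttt
IFI27: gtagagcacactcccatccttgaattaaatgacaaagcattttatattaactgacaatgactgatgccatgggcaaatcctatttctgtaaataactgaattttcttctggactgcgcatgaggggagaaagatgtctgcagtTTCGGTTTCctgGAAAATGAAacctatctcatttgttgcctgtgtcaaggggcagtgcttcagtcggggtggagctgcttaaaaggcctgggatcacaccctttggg
EPSTI1: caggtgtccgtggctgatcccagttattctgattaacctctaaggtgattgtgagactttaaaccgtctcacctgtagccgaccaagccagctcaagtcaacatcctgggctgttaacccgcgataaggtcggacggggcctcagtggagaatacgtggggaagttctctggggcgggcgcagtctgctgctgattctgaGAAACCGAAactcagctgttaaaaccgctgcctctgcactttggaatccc

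Among the resistant lines, Dox500 stood lowest for most of these genes. Of the 24, 19 were lower in Dox500 than the mean of the other 4 resistant lines and 1 was higher (IFITM2, by 0.40 on the log2 scale), with a median log2 difference of -0.51, where 9.77% of all genes were lower. Dox500 had the lowest mean of the 5 resistant lines for 17 of the 24 genes (70.8%), which held for 1632 of all 9151 genes (17.8%). On single arrays the median of the list above the Ramos mean was 0.75 to 1.03 on the 4 Dox500 arrays, with replicate 3 lowest. It ran from 1.22 to 1.49 on the Dox250 arrays, from 1.68 to 1.88 on those of Dox750, from 1.39 to 1.54 on those of Dox100 and from 1.50 to 1.60 on those of Dox1000, so no Dox500 array reached the range of another resistant line. Against Dox250, 14 of the 24 were lower and 2 higher in Dox500, and 18 were higher and none lower in Dox750 than in Dox500. IFI6, a mitochondrial survival gene among the effectors, read 7.90, 7.56, 7.61 and 7.70 in Ramos and 7.75, 7.79, 7.49 and 7.85 in Dox500. The 2 lines overlapped (log2 difference 0.02 ± 0.10, adjusted p = 0.875), and a second probe differed in the opposite direction by -0.11. Yet IFI6 stood 1.53, 0.76, 1.83 and 1.66 above Ramos on the log2 scale in Dox100, Dox250, Dox750 and Dox1000, and its Dox500 arrays lay below all 16 arrays of those lines (log2 difference from their mean -1.42 ± 0.08, adjusted p = 4.51e-11). IFI27 went the other way at this step and rose by 1.19 on the log2 scale over Dox250 (adjusted p = 3.05e-04).

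Of 21 measured genes of interferon signalling and RNA sensing, 11 were higher and 3 lower, with a median of 0.24. IRF9, the DNA-binding subunit of the complex that answers type I interferon, read 8.89, 8.75, 8.78 and 8.88 in Ramos and 10.61, 10.88, 10.03 and 10.44 in Dox500, a log2 difference of 1.66 ± 0.12 (adjusted p = 1.00e-10). IRF7, the factor that amplifies interferon transcription, rose by 1.65 ± 0.12, and TLR9, the endosomal sensor of unmethylated DNA, by 1.25 ± 0.12. SOCS1, the inhibitor of JAK kinases, read 9.27, 9.01, 8.73 and 8.81 in Ramos and 7.13, 7.48, 7.28 and 7.14 in Dox500. It fell by 1.70 ± 0.12 on the log2 scale (adjusted p = 4.12e-11), and the groups did not overlap. The kinase gene JAK1 (-0.69) and the RNA sensor gene TLR7 (-0.72) were the other 2 lower genes. IRF7 was 0.80 lower in Dox500 than in the mean of the other resistant lines, while IRF9 differed from it by -0.15 (adjusted p = 0.279). Under median scaling this list had 7 genes higher and 7 lower.

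**Figure D3:**
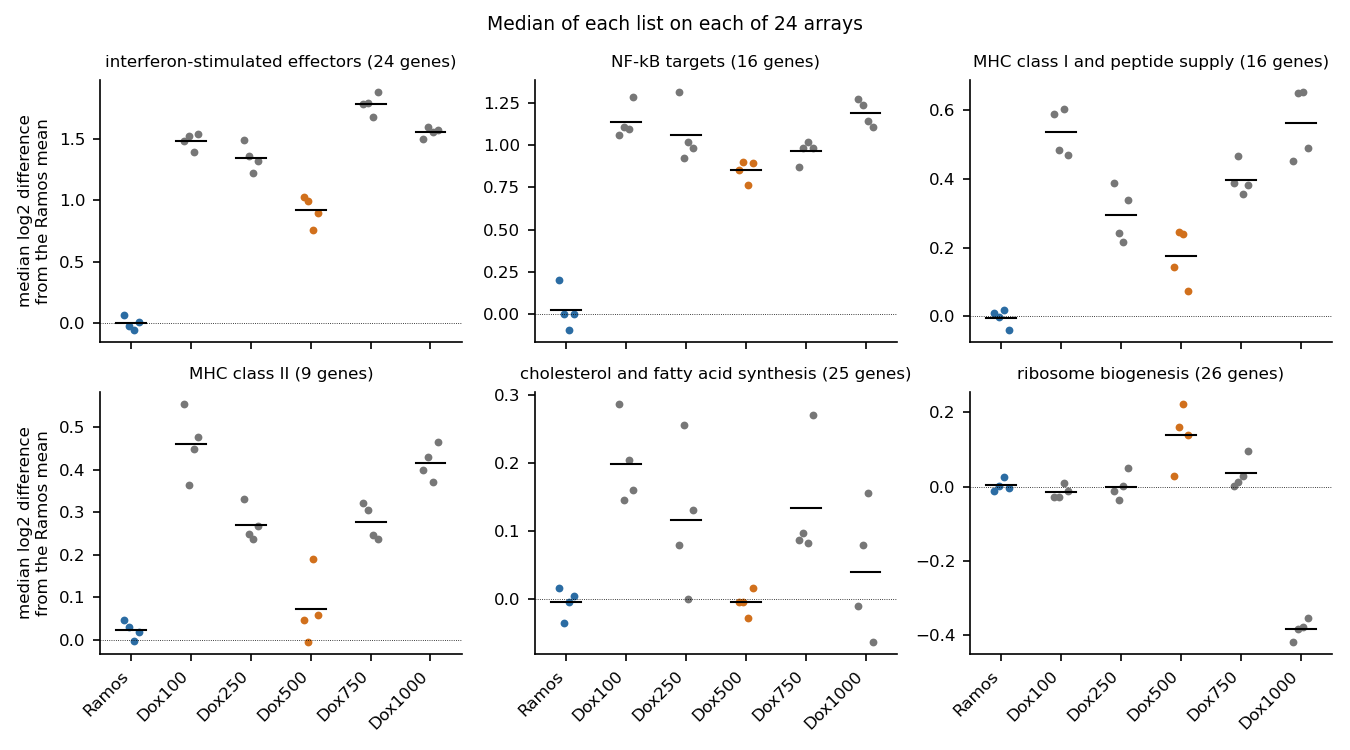
Median log2 difference from the Ramos mean (y axis) of the measured genes of a list on each of the 24 arrays, by line (x axis), for the lists named in the panels; points are arrays and bars the mean of a line. For interferon-stimulated effectors the Dox500 arrays lie at 0.75 to 1.03, above Ramos and below every array of the other 4 resistant lines.

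Most measured NF-kB target genes, which the NF-kB factors switch on in immune signalling, rose too. Of 16 measured, 12 were higher and 2 lower, with a median log2 difference of 0.86. LTB, the membrane-anchoring chain of lymphotoxin, read 10.21, 9.86, 9.89 and 9.95 in Ramos and 11.72, 11.74, 11.87 and 11.74 in Dox500, 3.47-fold higher (log2 difference 1.79 ± 0.09, adjusted p = 6.03e-14). LTA, its soluble partner, rose by 1.52 ± 0.13 and CD40, the receptor for T cell help, by 1.49 ± 0.12. The cytokine gene TNF, undetected in Ramos (mean 5.12) and at 6.52 in Dox500, was at least 1.94-fold higher (adjusted p = 8.28e-08). The 2 lower genes were IRF4, a lymphoid transcription factor, at -0.61, and CFLAR, which blocks caspase activation at death receptors, at -0.51 ± 0.13. Of the 9 NF-kB subunits and kinases themselves, 3 were higher and 2 lower, with differences under 0.5 on the log2 scale: RELB (0.48) and NFKB2 (0.43), of the alternative pathway, and the kinase CHUK (0.34) rose, and NFKB1, of the classical pathway, fell by 0.41. Under median scaling the median of this subunit list was -0.11 in place of 0.04 (0.04 relative to all genes), and median scaling took NFKB2 (adjusted p = 0.178) and CHUK (adjusted p = 0.0923) out of the calls. As with the interferon list, 10 of the 16 targets were lower in Dox500 than in the mean of the other resistant lines, and Dox500 was the lowest of the 5 in 11 (68.8%). Against Dox250, 8 were lower and none higher in Dox500, LTB by 0.69 and LTA by 0.77 on the log2 scale. In Dox750 2 of the 16 were higher than in Dox500.

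A kappa-B core, GGGNNTTTC, searched in the same windows, stood in 6 of the 22 windows (27.3%) of the 13 targets that matched the RefSeq table, against 4.78% of all. The 6 windows belonged to 5 genes, and the 2 windows of LTB share nearly all their bases and the same matches. The gamma-activated site stood in 22.7% of the same windows, from 3 genes, against 7.66% of all, and no window of LTA or TNF held a kappa-B match. The promoter of LTB is shown as the target with the largest rise, again as the 250 bases before the start site (GRCh38.p14, chr6:31582426-31582675, minus strand), with the 2 matches, on the opposite strand and beginning 85 and 26 bases before the start, in capitals.
LTB: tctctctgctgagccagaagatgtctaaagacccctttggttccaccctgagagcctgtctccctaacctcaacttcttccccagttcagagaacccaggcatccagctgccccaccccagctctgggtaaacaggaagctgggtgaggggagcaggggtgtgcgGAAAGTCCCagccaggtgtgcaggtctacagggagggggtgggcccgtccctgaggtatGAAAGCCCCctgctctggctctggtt

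Among 16 measured TNF receptors and ligands 8 rose and 6 fell, with a median of 0.51 (0.23 with undetected genes at their bound). TNFRSF21, the death receptor DR6, read 8.06, 8.17, 8.05 and 8.27 in Ramos and 10.41, 10.28, 10.33 and 10.24 in Dox500, a log2 difference of 2.18 ± 0.08 (adjusted p = 1.14e-15). CD27, a receptor of memory B cells, rose by 1.18 ± 0.06. TNFRSF13C, the receptor through which BAFF sustains mature B cells, read 7.35, 7.18, 7.38 and 6.98 in Ramos and 5.49, 5.26, 5.26 and 5.70 in Dox500, where 1 of 4 arrays detected it. It fell by 1.80 ± 0.16 on the log2 scale (adjusted p = 4.77e-09). With genes of chromosomes 7, 12 and 20 left out, 5 rose and 6 fell and the median was 0.02.

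Genes of MHC class I chains and their peptide supply, which show fragments of cell proteins to T cells, had small differences. Of 16 measured, 7 were higher and 3 lower, with a median of 0.16 (-0.00 under median scaling, 0.15 relative to all genes). HLA-F rose by 0.97 ± 0.07 and HLA-B, a classical antigen-presenting chain, by 0.90 ± 0.08, from 11.51 to 11.71 in Ramos to 12.37 to 12.64 in Dox500. A second HLA-F probe differed by -0.23, and HLA genes are near-identical in places and vary between people, so a probe may read more than 1 of them. HLA-C rose by 0.48 ± 0.12. ERAP2, which trims peptides in the endoplasmic reticulum, fell by 0.71 ± 0.11. Of the 16, 11 were lower in Dox500 than in the mean of the other resistant lines and Dox500 was the lowest of the 5 in 11 (68.8%), with 6 lower than in Dox250 and 7 higher in Dox750. In the MHC class II list 3 of 9 were higher and 2 lower, with a median of 0.07 (-0.06 under median scaling, 0.10 relative to all genes). HLA-DPA1, an antigen-presenting chain, rose by 0.42 ± 0.08. HLA-DMA rose by 0.27 and HLA-DMB by 0.25, both peptide exchange chains, with overlapping arrays and with adjusted p = 0.195 and 0.202 under median scaling. HLA-DRB3 differed by -0.25 (adjusted p = 0.0414), with overlapping arrays and an adjusted p of 0.0510 to 0.147 without Ramos replicate 1 or 3 or Dox500 replicate 1, 2 or 4. Dox500 was the lowest resistant line in 7 of the 9 (77.8%), and 5 were lower than the mean of the others.

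The 2 genes of the drug's main target, TOP2A and TOP2B, fell. Of 8 measured topoisomerases and repair enzymes of their DNA adducts, 4 were lower and 1 higher, with a median of -0.35. TOP2A, the topoisomerase II of dividing cells, read 12.36, 12.30, 12.22 and 12.42 in Ramos and 11.65, 11.48, 11.74 and 11.67 in Dox500, 1.61-fold lower (log2 difference -0.69 ± 0.09, adjusted p = 7.99e-07). TOP2B, the isoform expressed in resting cells too, read 12.08, 12.22, 12.15 and 12.30 in Ramos and 11.62, 11.64, 11.74 and 11.70 in Dox500 (log2 difference -0.52 ± 0.08, adjusted p = 7.34e-06). Neither set of arrays overlapped, and both stood within 0.02 of the mean of the other resistant lines. TDP1, which removes proteins bound to DNA ends, fell by 0.95 ± 0.13 with the probe used, while 2 other probes of it differed upward. TOP1 rose by 0.68 ± 0.10; it lies on chromosome 20, most of whose genes were higher. The anthracycline metabolism list had 5 of 7 genes higher and none lower (median 0.56). ALDH1A1, a cytosolic aldehyde dehydrogenase, was detected on 1 of 4 Ramos arrays and rose by 3.12 ± 0.10 on the log2 scale (adjusted p = 1.43e-17). ALDH3A2 rose by 1.37 ± 0.10, POR, the electron donor of cytochrome P450 enzymes that can also reduce doxorubicin, by 0.78 ± 0.12 and the quinone reductase NQO1 by 0.56 ± 0.12.

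Genes of double-strand break signalling and repair split: 4 of 20 were higher and 6 lower, beside 25.5% and 24.1% of all genes. The median was -0.12. XRCC2, a gene of homologous recombination, read 10.93, 11.11, 11.18 and 11.32 in Ramos and 10.20, 10.06, 10.19 and 10.22 in Dox500 (log2 difference -0.97 ± 0.11, adjusted p = 2.66e-07). CHEK2, a checkpoint kinase, fell by 0.45 ± 0.09 and TP53BP1, which binds at breaks, by 0.46 ± 0.09. RNF8, the ubiquitin ligase that recruits repair factors, rose by 0.80 ± 0.10. CHEK2 was also 0.81 lower on the log2 scale than in Dox250, where it had stood 0.36 above Ramos. XRCC2 lies near the end of the long arm of chromosome 7, described below, where neighbouring genes fell too.

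Of 35 DNA replication genes 14 were lower and 6 higher (median -0.13). MCM7, a subunit of the replicative helicase, fell by 0.63 ± 0.08. GINS3, of the same helicase complex, rose by 0.76 ± 0.09, RRM2, a ribonucleotide reductase subunit, by 0.63 ± 0.13 and the polymerase gene POLE by 0.57 ± 0.09. MCM7 lies on the long arm of chromosome 7 and POLE on chromosome 12, whose medians were -0.25 and 0.45 (below). Among 30 mitotic genes 8 were higher and 4 lower, beside 25.5% and 24.1% of all genes. The median was -0.01, and off chromosomes 7, 12 and 20 the counts were 4 and 4. The checkpoint kinase gene BUB1 fell by 0.68 ± 0.10. INCENP, a scaffold of the chromosomal passenger complex, rose by 0.65 ± 0.19. AURKA and TPX2, a mitotic kinase and its activator and both on chromosome 20, rose by 0.53 ± 0.06 and 0.48 ± 0.09. MYC, the driver oncogene of this lymphoma, did not pass: it read 12.44 to 12.56 in Ramos and 12.35 to 12.53 in Dox500 (log2 difference -0.06 ± 0.08, adjusted p = 0.556).

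The p53 target list split, with 6 of 22 higher and 5 lower, and its median was 0.16 (-0.03 under median scaling, 0.12 relative to all genes). SESN1, a stress-induced inhibitor of growth signalling, rose by 0.87 ± 0.13. ZMAT3, an RNA-binding protein gene, fell by 0.80 ± 0.09 with its brightest probe, but 2 other probes differed upward and the mean of its probes differed by -0.12 (adjusted p = 0.200). FAS, the death receptor, undetected in Ramos (4.65 to 5.46) and detected on 3 of 4 Dox500 arrays (mean 5.79), was at least 1.17-fold higher (adjusted p = 5.21e-04). MDM2, the inhibitor of p53, detected on 3 of 4 Ramos arrays, differed by 0.65 ± 0.20 with overlapping arrays. Without Ramos replicate 4 it differed by 0.41 (adjusted p = 0.0562), and under median scaling by 0.50 (adjusted p = 0.0578).

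Of 16 pro-apoptotic genes 6 were higher and 2 lower, beside 25.5% and 24.1% of all genes, with a median of 0.18, and 4 of the 6 were at least 2-fold higher. BMF, a BH3-only protein, was detected on 1 of 4 Ramos arrays and read 7.19, 7.49, 7.59 and 7.04 in Dox500, 1.98 ± 0.18 higher on the log2 scale (adjusted p = 4.87e-09). BCL2L11, which encodes BIM, rose by 1.41 ± 0.11 and HRK, another BH3-only gene, by 1.32 ± 0.15. CASP4, the inflammatory caspase that senses lipopolysaccharide, read 6.47 to 7.13 in Ramos and 7.95 to 8.10 in Dox500 (log2 difference 1.11 ± 0.10). It was 1.03 lower on the log2 scale than the mean of the other resistant lines, with all 4 Dox500 arrays below their 16. On the anti-apoptotic side 3 of 7 rose and 2 fell, with a median of 0.06 (-0.13 under median scaling, 0.02 relative to all genes). BCL2 read 4.91, 4.90, 5.18 and 5.63 in Ramos, where 1 array detected it, and 6.22, 6.55, 6.20 and 5.94 in Dox500 (log2 difference 1.07 ± 0.16, adjusted p = 1.15e-05). BCL2L1, which encodes BCL-XL and lies on chromosome 20, rose by 0.54 ± 0.09. MCL1 rose by 0.32 ± 0.10, with 1 Ramos array inside the Dox500 range and an adjusted p of 0.118 under median scaling. BIRC2, an inhibitor of apoptosis, fell by 0.41 ± 0.11.

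B cell transcription factors were lower more often than higher. Of 23 measured, 12 were lower and 2 higher, with a median of -0.38. EBF1, which specifies the B lineage, read 8.29, 8.35, 8.47 and 8.54 in Ramos and 6.95, 7.18, 7.53 and 7.17 in Dox500 (log2 difference -1.20 ± 0.13, adjusted p = 7.69e-08). MEF2C fell by 1.22 ± 0.19 and POU2AF1, the coactivator of octamer factors, by 0.81 ± 0.07. ID2, which inhibits E protein factors, rose by 0.88 ± 0.11. EBF1 and POU2AF1 lay within 0.08 of the mean of the other resistant lines. The B cell receptor list split, with 7 of 21 higher and 8 lower (median -0.11). Beside PRKCB, the kinase gene PIK3CD fell by 0.94 ± 0.17. BLNK, the adaptor that links the receptor to its kinases, was detected on 3 of 4 Ramos arrays and on none of Dox500 (means 5.77 and 4.95), at least 1.12-fold lower (adjusted p = 4.69e-03). PTPN6, the inhibitory phosphatase SHP-1, read 6.16 to 6.61 in Ramos and 7.63 to 8.13 in Dox500 (log2 difference 1.49 ± 0.12), and CD72, an inhibitory co-receptor, rose by 1.08 ± 0.08. The surface chains rose modestly. CD79B rose by 0.51 ± 0.07 and CD79A by 0.41 ± 0.07, and MS4A1 by 0.78 ± 0.10 with the probe used, another probe of which differed downward.

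Germinal centre and pre-B genes moved both ways, with 6 of 14 higher and 4 lower (median 0.15). CD24, a surface glycoprotein of B cell precursors, read 7.72, 7.12, 7.20 and 7.44 in Ramos and was undetected in Dox500 (mean 4.46), at least 3.39-fold lower (adjusted p = 1.62e-17). SERPINA9, a serine protease inhibitor of germinal centre B cells, was undetected in Ramos (mean 4.50) and read 7.33, 7.38, 7.81 and 7.51 in Dox500, at least 3.84-fold higher (adjusted p = 1.79e-14). The surrogate light chain gene VPREB1, which 3 of the 4 Ramos arrays detected, was 1.71 ± 0.16 higher, and VPREB3, which helps assemble the pre-B receptor, rose by 1.29 ± 0.06. Of 14 plasma cell genes 5 were higher and 3 lower (median 0.15, -0.02 under median scaling and 0.13 relative to all genes), and 2 higher off chromosomes 7, 12 and 20. FKBP11, a chaperone of secretory cells, rose by 0.81 ± 0.07 and SSR4, of the translocon-associated complex, by 0.63 ± 0.07, while DERL3, which removes misfolded proteins, fell by 0.91 ± 0.20. FKBP11 lies on chromosome 12.

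Integrated stress response genes, which are driven by ATF4 when translation or amino acid supply is disturbed, were lower more often than higher: 12 of 24 against 5, with a median of -0.18 (-0.30 and 2 higher off chromosomes 7, 12 and 20). SLC38A2, an amino acid transporter, read 7.42, 7.08, 7.17 and 7.36 in Ramos and was undetected in Dox500 (mean 4.39), at least 3.14-fold lower (adjusted p = 3.42e-12). DDIT4, an inhibitor of mTOR signalling, fell by 1.13 ± 0.17 and the secreted hormone STC2 by 0.98 ± 0.11. PPP1R15A, which restarts translation after stress, rose by 0.90 ± 0.10. The amino acid response element TGATGNAA stood in 6 of 33 promoter windows of the 21 matched genes (18.2%) and 3.62% of all. No window of SLC38A2, DDIT4, STC2 or PPP1R15A held it. Aminoacyl-tRNA synthetases shifted the same way, with 9 of 18 lower and 3 higher (median -0.20). WARS1 fell by 0.50 ± 0.09, GARS1 by 0.43 ± 0.08 and SARS1 by 0.43 ± 0.07, and HARS1 rose by 0.45 ± 0.08, the enzymes that charge tryptophan, glycine, serine and histidine tRNAs.

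Ribosome biogenesis genes had 9 of 26 higher and 3 lower (median 0.16), and under median scaling 4 and 4. NOP2, a methyltransferase of ribosomal RNA, rose by 0.84 ± 0.10 and PES1, of the complex that matures the large subunit, by 0.66 ± 0.13. NOP2 lies on chromosome 12, most of whose genes were higher. UTP20, undetected in Ramos (mean 4.97) and at 5.97 in Dox500, was at least 1.33-fold higher (adjusted p = 1.02e-03). NOLC1, a nucleolar phosphoprotein, read 9.62, 9.66, 9.69 and 9.56 in Ramos and 8.55, 8.44, 8.68 and 8.53 in Dox500 (log2 difference -1.09 ± 0.09). Dox500 had the highest mean of the 5 resistant lines in 13 of the 26 (50%), where this held for 2166 of all genes (23.7%), and 12 were higher and 1 lower than the mean of the other lines.

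Chaperones of the endoplasmic reticulum were higher, 11 of 21 against 4 (median 0.22). HSPA5, the chaperone BiP, read 9.30, 8.99, 9.06 and 8.94 in Ramos and 10.25, 10.38, 10.31 and 10.33 in Dox500 (log2 difference 1.24 ± 0.09, adjusted p = 1.03e-10), and it was 0.41 above the mean of the other resistant lines. HSP90B1 rose by 0.86 ± 0.07 and DNAJB11 by 0.62 ± 0.07, while EDEM1, which sorts proteins for degradation, fell by 0.74 ± 0.09. Under median scaling the counts were 6 and 5. Heat shock proteins split, 5 of 20 higher and 3 lower (median -0.00), beside 25.5% and 24.1% of all genes. The small chaperone HSPB1 read 12.41, 12.38, 12.22 and 12.34 in Ramos and 11.19, 11.08, 11.14 and 11.05 in Dox500 (log2 difference -1.23 ± 0.07), and DNAJB6 fell by 1.09 ± 0.11; both lie on chromosome 7. BAG3, a co-chaperone of autophagy, rose by 0.58 ± 0.14 and CCT2, a chaperonin subunit on chromosome 12, by 0.53 ± 0.10.

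Lysosomal genes were higher more often than lower, 17 of 27 against 3 (median 0.36), with 14 and 3 off chromosomes 7, 12 and 20. CTSA, a lysosomal carboxypeptidase, read 7.05, 7.04, 6.51 and 6.49 in Ramos and 8.20, 8.20, 8.35 and 8.36 in Dox500 (log2 difference 1.51 ± 0.13). GRN, which encodes progranulin, rose by 1.49 ± 0.09 (adjusted p = 3.45e-12) and the protease gene CTSZ by 1.20 ± 0.10. SGSH, a sulfatase of heparan sulfate breakdown, was undetected in Dox500 (means 6.67 and 4.50), at least 2.09-fold lower (adjusted p = 1.11e-15).

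Glycolysis and hypoxia genes were lower, 14 of 27 against 6 (median -0.28), and 14 against 2 off chromosomes 7, 12 and 20. HK1, a hexokinase of the first step of glycolysis, read 11.87, 11.83, 11.85 and 11.82 in Ramos and 10.66, 10.82, 10.69 and 10.87 in Dox500 (log2 difference -1.08 ± 0.07, adjusted p = 7.19e-12). EGLN1, an oxygen-sensing hydroxylase, fell by 1.14 ± 0.20. PFKM, the muscle phosphofructokinase, rose by 1.07 ± 0.07, and SLC2A3, the glucose transporter GLUT3, undetected in Ramos (mean 5.07) and at 7.07 in Dox500, was at least 2.84-fold higher (adjusted p = 3.48e-11); both lie on chromosome 12. Cholesterol and fatty acid synthesis had 4 of 25 higher and 8 lower (median -0.07). INSIG1, which holds sterol sensing in the endoplasmic reticulum, read 11.90, 11.60, 11.80 and 11.80 in Ramos and 11.13, 11.06, 10.84 and 11.15 in Dox500 (log2 difference -0.73 ± 0.11). It was 0.70 below the mean of the other resistant lines, and Dox500 was the lowest of the 5 in 13 of the 25 genes (52.0%), with 10 lower than that mean and none higher. LSS, PMVK and HSD17B7, enzymes of sterol synthesis, fell by 0.69 ± 0.09, 0.64 ± 0.10 and 0.64 ± 0.12. Oxidative phosphorylation subunits changed little, 9 of 37 higher and 6 lower (median -0.00), beside 25.5% and 24.1% of all genes. COX6A1, on chromosome 12, rose by 0.74 ± 0.07 and UQCRB by 0.53 ± 0.07, while the ATP synthase subunits ATP5F1C and ATP5MF fell by 0.45 ± 0.12 and 0.45 ± 0.09.

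Of 26 glutathione and NRF2 genes 10 were higher and 7 lower (median 0.06, -0.08 under median scaling and 0.07 relative to all genes), and 6 and 6 off chromosomes 7, 12 and 20. MGST1, a membrane-bound glutathione transferase on chromosome 12, read 9.50, 9.77, 9.73 and 9.54 in Ramos and 11.03, 10.92, 10.98 and 10.95 in Dox500 (log2 difference 1.34 ± 0.09, adjusted p = 1.47e-11). MGST2 rose by 0.84 ± 0.07. GCLM, a subunit of the enzyme that starts glutathione synthesis, fell by 0.72 ± 0.12 and GSTZ1 by 0.61 ± 0.09.

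Surface and calcium-binding proteins held several of the largest single differences. Of 9 measured S100 proteins and annexins 3 were higher and 2 lower (median -0.04). Beside S100A4 and ANXA2, S100A6 read 6.03, 5.54, 5.50 and 6.37 in Ramos, where 3 arrays detected it, and 7.90, 7.63, 7.73 and 7.55 in Dox500, a rise of 1.85 ± 0.16 on the log2 scale. ANXA5, the annexin that binds exposed phosphatidylserine, fell by 1.21 ± 0.09 and was 0.89 below the mean of the other resistant lines. Adhesion receptors rose in 10 of 15 and fell in 3 (median 0.38). ITGB2, the integrin chain shared by leukocyte integrins, read 7.16, 7.13, 6.84 and 6.78 in Ramos and 8.49, 8.67, 8.72 and 8.56 in Dox500 (log2 difference 1.63 ± 0.09, adjusted p = 2.39e-12), and it had risen by 0.62 over Dox250. ICAM1, its ligand, rose by 1.05 ± 0.17 and PECAM1, detected on 1 of 4 Ramos arrays, by 1.04 ± 0.11.

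All 9 measured NLR and inflammasome genes passed, 5 higher and 4 lower, and 11 further listed genes did not reach the detection rule. NLRP4, beside NLRP11 on chromosome 19, was undetected in Ramos (mean 4.75) and read 8.89, 8.67, 8.87 and 8.96 in Dox500, at least 9.72-fold higher (adjusted p = 1.44e-19). Like NLRP11 it rose at this step, by 1.81 ± 0.10 on the log2 scale over Dox250 (adjusted p = 2.78e-11). IL1B, the cytokine gene whose product inflammasomes mature, was undetected in Ramos (mean 4.51) and read 6.64, 6.75, 6.59 and 6.62 in Dox500, at least 2.12-fold higher (adjusted p = 1.32e-13). Of 17 DNA methylation and histone deacetylation genes 3 were higher and 6 lower (median -0.11). The deacetylase gene HDAC8 rose by 0.51 ± 0.12 and HDAC7 by 0.44 ± 0.15 (adjusted p = 0.0543 without Dox500 replicate 3, 0.0517 with no filter on dim probes and, at 0.26, 0.130 under median scaling). HDAC10, detected on 1 of 4 Dox500 arrays, fell by 0.55 ± 0.16, and the 5-methylcytosine oxidase gene TET1, detected on 2, by 0.58 ± 0.22, with overlapping arrays and an adjusted p of 0.0643 to 0.146 when single arrays other than Ramos replicate 1 and Dox500 replicate 4 were left out.

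**Figure D4:**
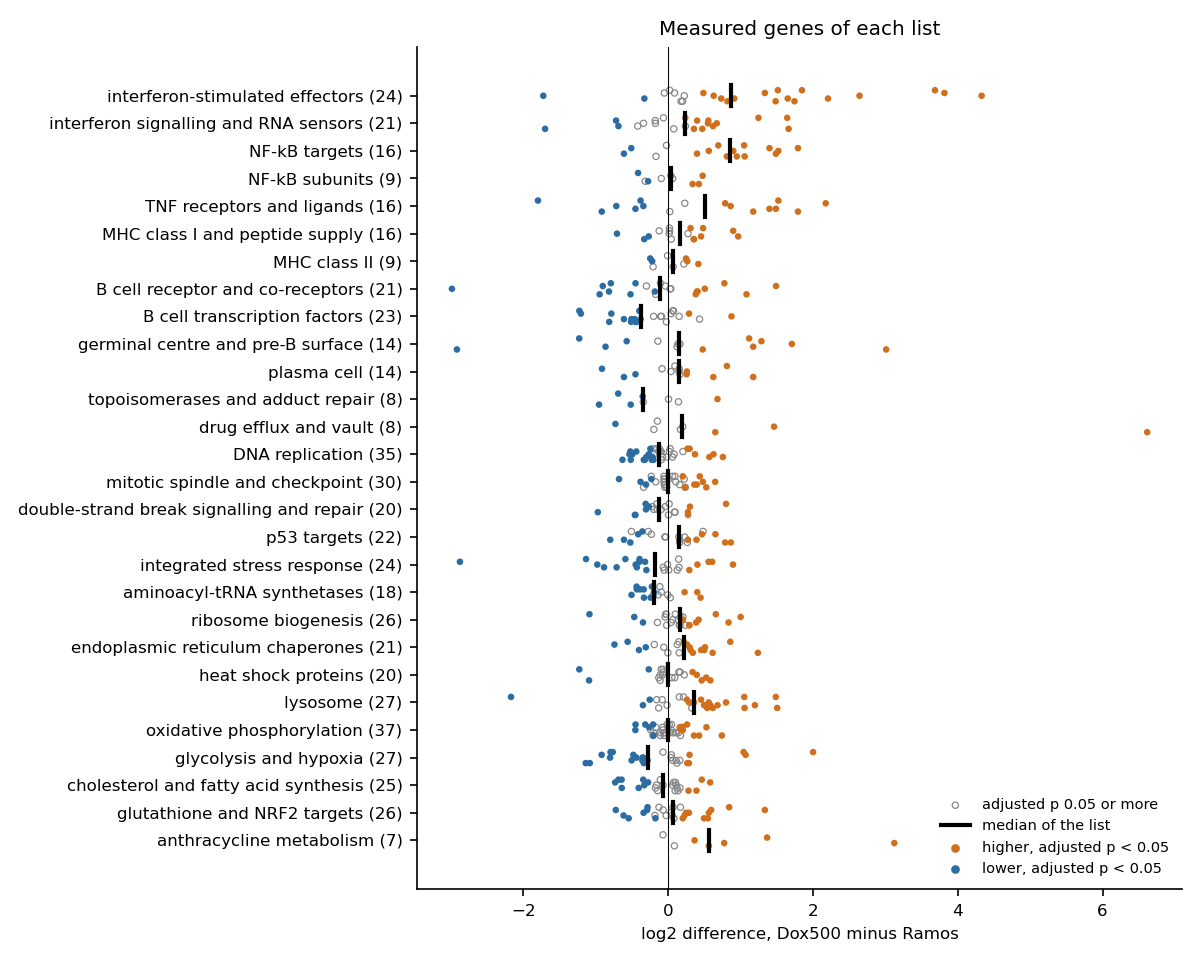
Log2 difference of Dox500 minus Ramos (x axis) of each measured gene of the lists named on the y axis, with the number measured in brackets; filled points passed at an adjusted p under 0.05, open points did not, and the bar is the median of the list. The interferon-stimulated effectors and NF-kB targets have the 2 medians farthest to the right among the lists of 6 or more genes, 0.87 and 0.86, and the B cell transcription factors the one farthest to the left, -0.38.

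A few genes set Dox500 apart from every other resistant line. Among genes at least 2-fold from the mean of the other 4 lines with all 4 arrays beyond their 16, 4 were higher and 18 lower. FBP1, which encodes the gluconeogenic fructose bisphosphatase, was undetected in Ramos (mean 4.87), Dox100 (4.90) and Dox250 (4.92) and read 7.29, 6.94, 7.19 and 6.84 in Dox500. Its mean was 5.31 in Dox750, where it was again undetected, and was 6.34 in Dox1000, where it was detected on all 4 arrays (adjusted p = 9.98e-09 for Dox500 against the mean of the others, 3 of which had no detected array). HOPX, a small homeodomain protein gene, was detected in no other line, with means of 4.40 in Ramos, 4.62 in Dox250, 5.94 in Dox500, 4.82 in Dox750 and 5.11 in Dox1000. AFAP1-AS1, a long non-coding RNA, stood at 7.81 to 8.02 in Dox500, 1.35 ± 0.10 above the fitted mean of the others (1 Dox100 and 3 Dox250 arrays detected it), with means of 7.55 and 7.51 in Dox750 and Dox1000. RUNX1T1, a transcriptional corepressor, stood at 7.05 to 7.43, 1.14 ± 0.16 above (1 Dox100 and 2 Dox250 arrays detected it).

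Among the 18 lower genes Dox500 marked a low point of the resistant lines. CHI3L2, a chitinase-like protein gene, read 6.01, 5.86, 5.91 and 6.25 in Ramos and 5.21, 5.54, 5.08 and 5.27 in Dox500, where no array detected it, with means of 7.76, 7.08, 7.05 and 7.69 in Dox100, Dox250, Dox750 and Dox1000 (adjusted p = 5.18e-13 against their mean). ASZ1, a piRNA pathway gene of the germline, stood at 9.42 and 9.63 in Dox100 and Dox250 and at 6.58 to 6.86 in Dox500, 1.90 ± 0.13 lower than the mean of the others. LITAF, an endosomal protein gene, read 9.20, 9.46, 9.53 and 9.30 in Ramos and 7.09, 6.60, 7.15 and 7.40 in Dox500, a fall of 2.31 ± 0.12 from Ramos and of 1.28 ± 0.10 from the mean of the other resistant lines. SP140, a chromatin reader of B cells, fell by 0.94 ± 0.11 from Ramos and lay 1.33 ± 0.08 lower than the others. CST3, the protease inhibitor cystatin C, was undetected in Ramos and read 5.76 to 6.32 in Dox500, 1.24 ± 0.12 lower than the others, and the long non-coding RNA OLMALINC lay 1.21 ± 0.10 lower. EPSTI1 and IFI6, described above, complete the 8 lowest.

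The step from Dox250 to Dox500 moved 1336 genes past the adjusted p, 56 of them at least 2-fold. Beside ABCB1, NLRP11, NLRP4, FBP1 and AFAP1-AS1, the rises held DCN, the extracellular matrix proteoglycan decorin, undetected up to Dox250 (mean 4.65) and at 6.22 to 6.71 in Dox500. Beside ASZ1, CHI3L2, CST3 and LITAF, the falls held CASP4, at -0.99 ± 0.10 just short of 2-fold (adjusted p = 7.41e-07). At the next step, to Dox750, IFI6 rose by 1.81, IFI44L by 1.56, IFI44 by 1.42 and EPSTI1 by 1.41 on the log2 scale, CHI3L2 was detected again, and FBP1 and HOPX were no longer detected. The same 4 Dox500 arrays enter both steps. With single arrays left out in turn, 52 to 71 genes passed 2-fold at the first of these steps and 20 to 27 at the second.

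Genes of chromosomes 12 and 20 and of the distal long arm of chromosome 7 were shifted over long runs of neighbours. On chromosome 12, 339 of 510 measured genes were higher (66.5%) and the median log2 difference was 0.45. On chromosome 20, 201 of 268 were higher (75%) and the median was 0.50. Chromosome 7 had a median of -0.25 with 213 of 451 genes lower (47.2%). Every other chromosome had a median between -0.07 and 0.03. Under median scaling the 3 medians were 0.30, 0.35 and -0.41, and relative to all genes 0.45, 0.50 and -0.26. The medians were alike in Dox250, 0.44, 0.47 and -0.21 above or below Ramos. Medians of whole chromosomes can hide shorter runs. On chromosome 9 the 20 measured genes from GNG10 to TNFSF15 had a median of -0.37, with 13 lower and 0 higher. The next 20, from TNFSF8 to RABGAP1, had -0.32. On chromosome 13 the 20 from BAGE5 to WASF3 had -0.44, with 12 lower and 5 higher. These runs were picked after their values were seen. In order along chromosome 7, the lower block medians lay past ABCB1. The blocks are fixed runs of 20 measured genes and do not place the edge of the fall. Single genes soon after ABCB1 went both ways, such as STEAP1 at 0.61, CYP51A1 at 0.06 (adjusted p = 0.756) and ANKIB1 at -0.64. Blocks before it had medians of -0.23 to 0.34. The block of 20 measured genes that ends at SLC25A40 had a median of 0.08, and the next, from DBF4 to SLC25A13, of -0.45. All later blocks had medians of -0.24 to -0.64. The last 31 measured genes of the long arm, from ZBED10P to VIPR2, were the lowest, with 28 lower and a median of -0.64. These 31 had stood at -0.25 in Dox250 and fell by a further 0.42 at the step to Dox500, as did the blocks from MTPN to OR9A4, by 0.36, and from GSTK1 to LRRC61, by 0.24. INSIG1, DNAJB6 and XRCC2 are among the 31, and of these INSIG1 fell at this step, by 0.98 ± 0.11 on the log2 scale, whereas XRCC2 differed from Dox250 by 0.02. In the other direction, the block from ASL to VPS37D stood 0.34 above Ramos and 0.27 above Dox250, and the next 2 blocks, up to SLC25A40, stood 0.20 and 0.23 above Dox250. These are levels of RNA, and copies of the DNA were not measured.

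**Figure D5:**
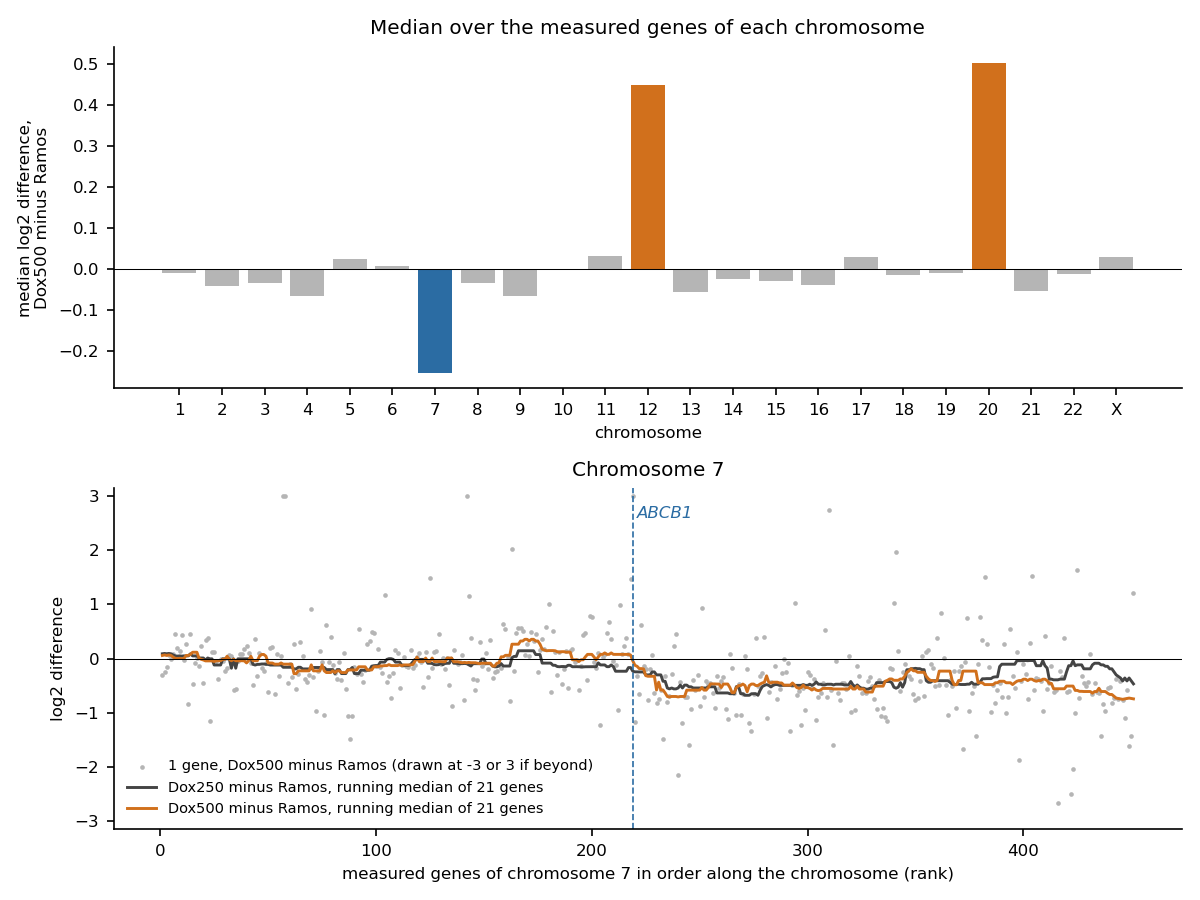
Upper panel, median log2 difference of Dox500 minus Ramos (y axis) over the measured genes of each chromosome (x axis). Lower panel, the log2 difference (y axis) of each measured gene of chromosome 7 in order along the chromosome (x axis, rank), with running medians over 21 genes for Dox500 and Dox250 as lines, values beyond 3 drawn at 3, and the place of ABCB1 as a dashed line. Chromosomes 12 and 20 stand above the rest at 0.45 and 0.50 and chromosome 7 below at -0.25, with the fall on the side of ABCB1 that runs to the end of the long arm.

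Markers of other cell types were set beside these results. Of 21 T and NK cell markers with a probe, 13 were undetected on all 8 arrays, among them CD3D, CD4, CD8A, GZMB and GNLY, and 3 were detected on 3 or more arrays in Ramos and 5 in Dox500. Their summed normalized intensity was 916 to 967 in Ramos and 1307 to 1342 in Dox500. PRF1, which encodes perforin, was undetected in Ramos (mean 4.81) and read 6.37 to 6.67 in Dox500, at least 1.96-fold higher (adjusted p = 2.85e-08). NKG7, a granule protein gene, was undetected in Ramos (mean 4.70) and read 6.01 to 6.26, at least 1.44-fold higher (adjusted p = 1.36e-06), and the kinase gene LCK rose by 0.82 ± 0.07. Of 13 myeloid markers 8 were undetected on all 8 arrays, LYZ, MPO, CSF1R and ITGAM among them, and the sums were 857 to 927 and 783 to 923. Of 12 epithelial and stromal markers 8 were undetected, EPCAM and COL1A1 among them, with sums of 706 to 781 and 690 to 815. Of 10 erythroid and megakaryocyte markers 8 were undetected, with sums of 299 to 335 and 303 to 334. The 11 B cell markers summed to 34731 to 37590 in Ramos and 45441 to 47660 in Dox500. Such a sum is weighted to the brightest genes, and the list as a whole did not rise. Of its 10 measured genes 4 were higher and 4 lower, with a median log2 difference of -0.20. In RNA from whole cultures, a change in the share of cells that carry a transcript and a change in its level per cell cannot be told apart.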

How the data were processed

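RNA of 6 lines, 4 cultures each, was read on Illumina bead arrays. The authors deposited unnormalized probe intensity with a detection p-value per probe and array, and separately log2 values that equal quantile-normalized log2 intensity without background correction, with which every array matched its own column. The scanner software that made the deposited detection p-value is not given in the sources used here. The lumi package is named, without a version, per the submitters' processing notes. The genome build behind the probe annotation is likewise not given.

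Intensities were background-corrected (normexp fitted with the detection p-values, offset 16), quantile-normalized over all 24 arrays and taken to log2 with limma 3.58.1 in R 4.3.3. Probes detected on 3 of 4 arrays of any line (15765) entered 1 limma fit with a mean per line (18 residual and 3.99 prior degrees of freedom), with Benjamini-Hochberg adjustment over them, and all adjusted p-values in the text are from this fit unless a setting is named. The 14976 probes detected in Ramos or Dox500 were then kept. Of these, 3025 had no single gene symbol, and of 2312 genes with several probes the brightest was read; 625 of these genes had another probe of opposite sign. A lower bound sets the brighter line's mean against the average, over the dimmer line's arrays, of the faintest signal any probe was detected at or the gene's own reading, whichever was larger. The fit was tested on simulated data. Probe sequences were not used here, so cross-hybridisation within families such as HLA, IFITM, ABCB1 with ABCB4 and NLRP was not tested.

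The text names the 15 highest and 15 lowest genes past 2-fold whose arrays did not overlap, up to 4 members of each list with the largest passing change, the 8 highest and 8 lowest beyond all arrays of the other resistant lines, and 12 genes in any case, 1 of which is not reported here. The neighbours and chromosome 7 block ends, IFITM2, SAMD9, IRF4, and the genes first seen or lost in Dox500 were named after their values were seen. The members and gene lists were chosen with earlier results of these data known. Alternatives tried were the deposited log2 values, leaving out the background correction, median scaling, no or stricter detection filters, the probe mean, a stricter p, an intensity trend, only the 8 arrays, a replicate block and each array left out; those without arrays of the other lines, without 1 other line in the mean and without chromosomes 7, 12 and 20 were chosen after seeing the data. Same-numbered cultures of Ramos and Dox500 did not deviate together.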

Additional observations from a re-analysis of the deposited data

Results flagged for a closer look

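Among 358 groups of 4 arrays, 1 for each named gene and line, 18 held an array that stood alone, its gap to the nearest other array taking a larger share of the group's range than Dixon's 95% critical value. Chance gives about 1 in 20 groups. Of the 18, 5 were Ramos and 13 Dox500 arrays, and Dox500 replicates 1 to 4 accounted for 3, 3, 4 and 3. The gap as a share of the range was 0.8482 for TERT, 0.9312 for RNF8 and 0.8341 for PECAM1 on Dox500 replicate 1. It was 0.8347 for SARS1, 0.8301 for XRCC2 and 0.8987 for ASZ1 on replicate 2. On replicate 3 it was 0.8382 for EPSTI1, 0.8764 for LTB, 0.8426 for ATP5MF and 0.8418 for OLMALINC. On replicate 4 it was 0.9069 for PIGY, 0.8311 for STOX2 and 0.9336 for HDAC10. Among Ramos arrays it was 0.8338 for CHEK2, 0.8525 for CCT2 and 0.885 for HDAC8 on replicate 1, 0.863 for CTSZ on replicate 2 and 0.86 for IFI44 on replicate 3.

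Dox500 differed by at least 2-fold from the mean of the other 4 resistant lines in 12 genes upward and 25 downward, by the limma test of that difference. Outside the comparison, 789 probes were detected on 3 or more arrays of another resistant line and in neither Ramos nor Dox500 by the same rule.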

How the results depend on the processing

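No gene result that passed in the main or the alternative setting changed direction. Of 3549 values of 191 gene results under the alternatives, 3511 stayed on their side of the threshold. Direction was not compared for results that passed in neither setting. The other 38 kept the direction but no longer passed. Most of the 191 results were chosen as large passing differences in these same data, so most were bound to stay. Leaving out the background correction and using the deposited values also count as 2 alternatives, though they hold the same values. Counts past 2-fold moved most. Without background correction, and with the deposited log2 values, 118 genes were higher and 79 lower than Ramos, 1 higher and 2 lower than the mean of the other resistant lines, 8 differed from Dox250 and 4 between Dox750 and Dox500. With genes detected on all 8 arrays only, these counts were 191, 171, 4, 9, 24 and 6, and with no fold floor 2338, 2203, 1069, 894, 1336 and 722. With no filter on dim probes 41 genes were lower than the mean of the others. With Dox100, Dox750 or Dox1000 left out of that mean, 4, 21 or 23 were higher. Median scaling gave 284 higher and 451 lower than Ramos, and the medians of 8 of 37 lists with 3 or more genes changed sign, or of 2 of 37 when taken relative to all genes. With single arrays left out, 362 to 394 genes were higher and 289 to 325 lower than Ramos at 2-fold, 4141 to 4472 passed, 10 to 16 were higher and 22 to 26 lower than the mean of the others, 52 to 71 differed from Dox250 and 20 to 27 between Dox750 and Dox500. Of the effectors 17 to 19, of NF-kB targets 7 to 10, of MHC class I genes 9 to 11 and of class II genes 5 to 6 were lower than that mean. With the replicate number as a block 370 genes were higher and 310 lower at 2-fold and 4477 passed, and no named gene lost its call; same-numbered deviations correlated at -0.14, -0.03, -0.12 and 0.02, so the numbers do not pair the cultures. The causes were not tested. Split cultures of 1 population per line, and signals near background for genes with a lower bound, limit these results.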

Other observations

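Detection itself changed at Dox500 for a few genes, taken in the order in which the lines were raised. A set of 7 genes was detected on all 4 Dox500 arrays and on none of Ramos, Dox100 or Dox250, and 3 of them were detected on every Dox750 and Dox1000 array. FGD5, an exchange factor for the small GTPase CDC42, rose from a mean of 4.71 in Dox250 to 6.92 in Dox500 on the log2 scale and stood at 6.38 in Dox750. SPANXA2, a gene of the sperm nucleus-associated family, stood at 4.84 in Dox250, 5.91 in Dox500 and 7.78 in Dox1000. DCN, described above, stood at 6.50 in Dox500 and 7.47 in Dox1000. FBP1, HOPX, NKG7 and ZNF488, a transcriptional repressor gene, complete the set, and HOPX and ZNF488 were detected in neither Dox750 nor Dox1000. In the other direction 2 genes were first undetected in Dox500. CHI3L2 was detected again on all arrays of Dox750 and Dox1000, whereas ZNF777, a zinc finger gene on chromosome 7, went from 7.67 in Ramos and 6.17 in Dox250 to below detection in Dox500 and was detected in neither later line.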
